A study of Mus musculus with 9 samples.

Results

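Mitochondrial ribosomal proteins were followed through 9 arrays of mouse blood and tumour-infiltrating cells, as the probes that the array files name Mrpl or Mrps with a digit. The rule took 126 of the 41174 non-control probes on the array, and these stood for 75 of 27573 named genes. There were 41 genes with 1 probe, 19 with 2, 13 with 3 and 2 with 4. Of the 126 probes, 112 were well above background in the sample channel on at least 3 of the 9 arrays, and each of the 75 genes kept at least 1 of them. Each gene was read from its brightest kept probe.

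The donors were 3 athymic Balb/c mice, all female (832, 833 and 834). Athymic mice lack a thymus and so have few mature T cells. Every mouse was bled at day 0, before it was given Hepa1-6 cells (a mouse hepatoma line) under the skin, and again at day 10, and its tumour was taken at day 10. From the ground tumour the submitters enriched a fraction of tumour-infiltrating inflammatory cells, here TIC, so the 3 groups of 3 arrays are day 0 blood, day 10 blood and day 10 TIC. The fraction was enriched, not sorted, and its RNA was extracted with another kit than the blood RNA, so tissue and kit cannot be told apart. Sample RNA was labelled with Cy5, and the same blood RNA from an untreated C57Bl/6 female was labelled with Cy3 as the reference on all 9 arrays, with no dye swap. A log2 ratio below is sample over reference after background correction and normalization within the array, and a difference is between group means of that ratio unless Cy5 alone is named.

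Mitochondria keep their own ribosome, which translates the few proteins encoded by mitochondrial DNA, all of them subunits of the respiratory chain and ATP synthase. Its RNAs are made inside the mitochondrion, but its proteins are encoded in the nucleus, translated in the cytosol and imported. Many are counterparts of bacterial ribosomal proteins and others exist only in mitochondria. Of the 75 genes, 48 encode proteins of the large subunit and 26 of the small one. The proteins of Mrps18a and Mrps30 sit in the large subunit in spite of their names. Mrps36 was named as a ribosomal protein but is known as a part of the 2-oxoglutarate dehydrogenase complex, and it was kept because the rule goes by name.

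The promoters of these genes are shown as a description, and shared control of the genes was not tested. RefSeq windows (GRCm38.p6) were found for 66 of the 75 genes. The genes without one were Mrpl4, Mrpl13, Mrpl15, Mrpl19, Mrpl38, Mrpl54, Mrps28, Mrps34 and Mrps35. The 250 bases before each annotated start were searched on both strands for CCGGAAG (a site of ETS factors such as GABP), GCGCATGCG (a site of NRF1), AAGATGGCG (YY1), GGGCGG (Sp1) and CACGTG (the E-box). CCGGAAG occurred in 17 of 66 genes (25.8%) and in 7.83% of the 27025 genes in the promoter table. GCGCATGCG occurred in 7 genes (10.6%, against 1.64%) and AAGATGGCG in 2 (3.03%, against 0.71%). GGGCGG was found in 47% of these genes and 35.4% of all, and CACGTG in 7.58% and 6.86%. Among the 17492 protein-coding genes the shares were 10.2% for CCGGAAG, 2.19% for GCGCATGCG, 0.84% for AAGATGGCG, 45.8% for GGGCGG and 7.61% for CACGTG. A match describes these letters only, and binding was not measured. No search allowed a mismatch, and the median G and C content of the windows was 58.4% in these genes against 52.4% in all windows.

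Below are the 250 bases before the start for 6 genes, 5′ to 3′ on the gene's own strand, in GRCm38.p6. Capitals mark CCGGAAG or its reverse complement CTTCCGG, and GCGCATGCG. Mrpl51 (chr6:125191950-125192199 on the plus strand) and Mrps18a (chr17:46110754-46111003 on the plus strand) were among the genes that rose most in the TIC fraction. Mrpl53 (chr6:83108858-83109107 on the plus strand) and Mrpl43 (chr19:45006443-45006692 on the minus strand) hold 2 matches each. Mrpl43 had the smallest p among all 75 genes between the bloods. Mrpl22 (chr11:58171414-58171663 on the plus strand) is 1 of 2 genes with both motifs. Mrps2 (chr2:28467816-28468065 on the plus strand), whose brightest probe fell, holds none of the 5 motifs. Mrpl35, Mrpl50, Mrpl12 and Mrps10, also among the genes that rose most, hold none of the 5 either. A relation between motif and direction was not tested.
Mrpl51: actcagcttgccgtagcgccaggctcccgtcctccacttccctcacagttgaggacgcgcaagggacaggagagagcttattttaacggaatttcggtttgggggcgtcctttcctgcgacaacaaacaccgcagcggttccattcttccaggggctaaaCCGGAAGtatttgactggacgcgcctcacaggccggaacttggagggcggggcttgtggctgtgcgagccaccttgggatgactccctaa
Mrps18a: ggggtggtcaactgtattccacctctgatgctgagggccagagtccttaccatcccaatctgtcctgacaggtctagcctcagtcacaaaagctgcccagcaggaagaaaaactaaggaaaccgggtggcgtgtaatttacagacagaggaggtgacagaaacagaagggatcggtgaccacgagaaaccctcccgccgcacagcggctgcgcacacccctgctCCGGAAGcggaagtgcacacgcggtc
Mrpl53: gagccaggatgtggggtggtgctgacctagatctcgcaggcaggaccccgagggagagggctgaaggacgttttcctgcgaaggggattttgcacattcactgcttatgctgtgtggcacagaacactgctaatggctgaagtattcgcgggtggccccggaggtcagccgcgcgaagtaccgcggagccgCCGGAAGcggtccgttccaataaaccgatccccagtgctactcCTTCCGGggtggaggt
Mrpl22: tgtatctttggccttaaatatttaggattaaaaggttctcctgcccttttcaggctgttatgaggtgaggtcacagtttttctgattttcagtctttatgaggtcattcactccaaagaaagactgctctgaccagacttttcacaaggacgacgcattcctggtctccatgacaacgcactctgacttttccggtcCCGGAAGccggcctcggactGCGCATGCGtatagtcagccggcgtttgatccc
Mrpl43: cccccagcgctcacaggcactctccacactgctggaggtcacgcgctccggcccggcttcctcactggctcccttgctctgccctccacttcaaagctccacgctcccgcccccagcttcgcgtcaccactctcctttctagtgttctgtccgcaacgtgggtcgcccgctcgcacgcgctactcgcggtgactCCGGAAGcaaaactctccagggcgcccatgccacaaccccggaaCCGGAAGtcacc
Mrps2: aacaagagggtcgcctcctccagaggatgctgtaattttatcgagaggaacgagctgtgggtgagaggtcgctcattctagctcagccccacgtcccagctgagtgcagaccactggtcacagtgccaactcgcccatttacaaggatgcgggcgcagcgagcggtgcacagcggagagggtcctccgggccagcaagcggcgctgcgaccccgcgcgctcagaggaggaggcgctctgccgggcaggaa

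The TIC fraction was set against the blood of the same day. It gave higher ratios for nearly the whole family: 70 of the 75 genes rose and 2 fell (limma, Benjamini-Hochberg adjusted p under 0.05), where 34.4% of all 14262 genes tested rose and 33.2% fell. The median difference over the 75 genes was 1.57 on the log2 scale, against 0.07 over all genes. The groups did not overlap for 68 genes that were higher and 3 that were lower in the TIC fraction, where 36.8% and 35% of all genes were so separated. The genes that fell were Mrps2 and Mrpl19, and Mrpl4, Mrpl32 and Mrpl33 were not called. In Cy5 alone, quantile-normalized with no use of the reference, 73 genes rose and 1 fell, with a median difference of 1.86 against 0.21 over all genes. There 34.4% of all genes rose and 23.3% fell. With the mouse as a block 69 rose and 1 fell, beside 33.2% and 33% of all genes. When day 0 blood was left out of the fit, 30.4% of all genes rose and 31.5% fell, and 64 and 2 of the 75 did.

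**Figure D1:**
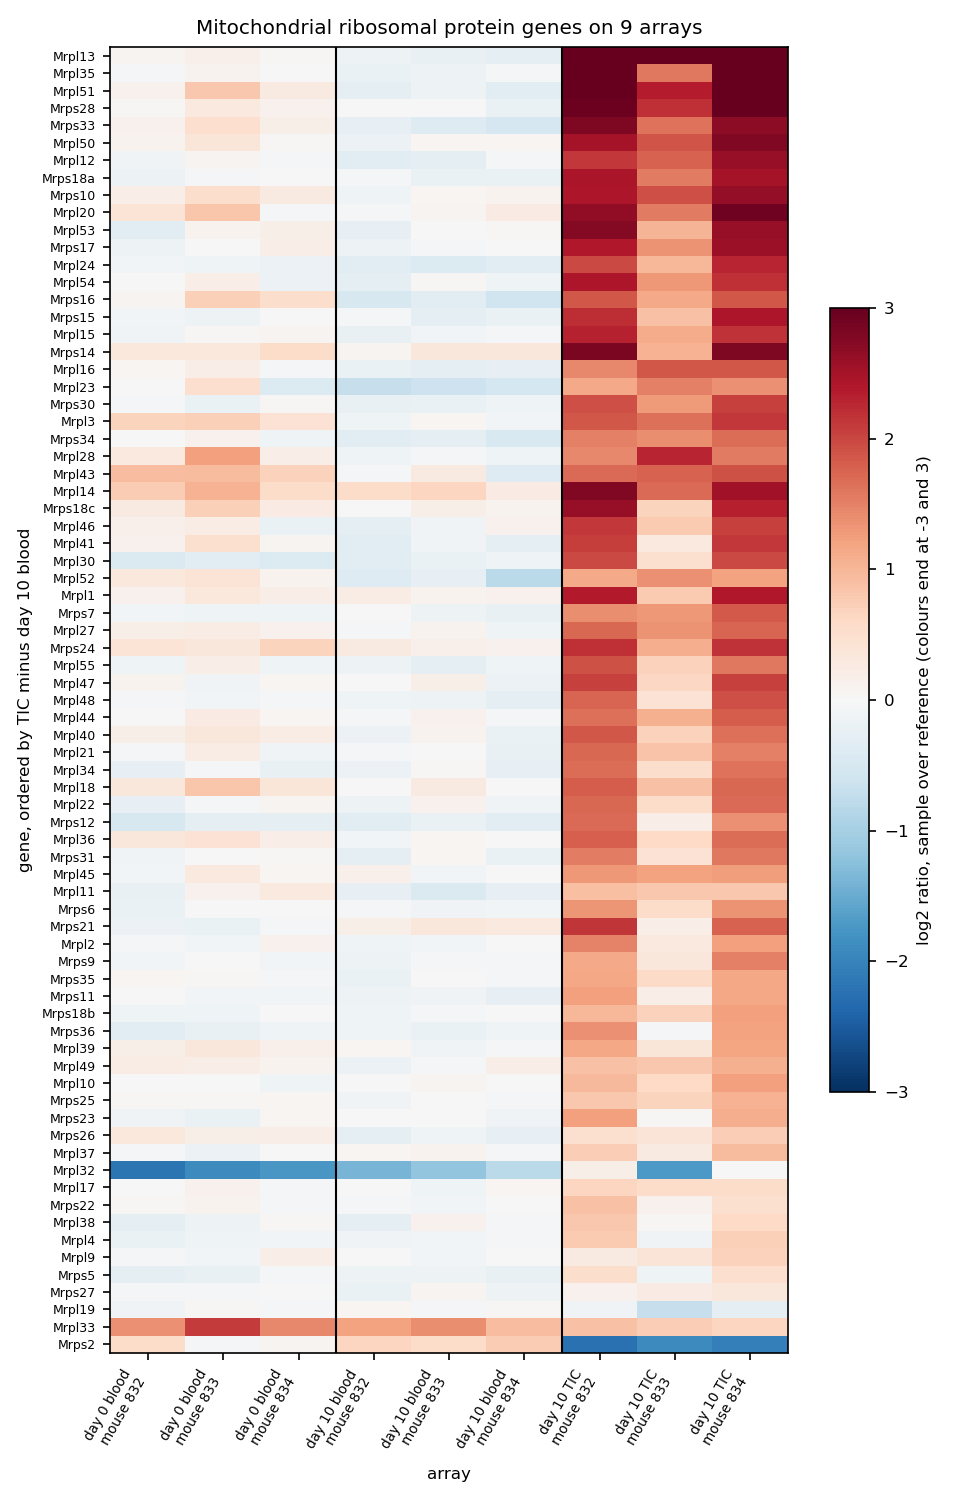
Heat map of the log2 ratio of sample over reference for the 75 genes (rows, ordered by TIC minus day 10 blood) on the 9 arrays (columns, by group and mouse), with colours ending at -3 and 3. The 3 TIC columns are red for most rows, the TIC array of mouse 833 is paler than the other TIC arrays, and Mrps2 is blue in TIC.

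The largest rise was that of Mrpl13, a large-subunit protein with a bacterial counterpart. Its log2 ratios were 0.09, 0.16 and 0.04 in day 0 blood, -0.15, -0.22 and -0.30 in day 10 blood and 4.29, 3.29 and 4.27 in TIC, for mice 832, 833 and 834 in this order, as in the lists of values that follow. The difference between TIC and day 10 blood was 4.18 ± 0.24 (SE, n = 3 arrays a group; adjusted p = 2.6e-06, limma). All 3 TIC arrays lay far above the 6 blood arrays, which stayed near the reference.

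Mrpl35, another large-subunit protein of bacterial type, read -0.05, 0.10 and 0.02 in day 0 blood, -0.19, -0.15 and -0.05 in day 10 blood and 3.79, 1.58 and 3.65 in TIC. Its rise of 3.14 ± 0.50 (adjusted p = 0.000616, limma) had the widest spread of the leading genes, since mouse 833 gave less than the other mice. Its second kept probe rose by less, 0.76 ± 0.12. Mrpl51, a mitochondria-specific protein of the large subunit, read 0.14, 0.82 and 0.26, then -0.28, -0.16 and -0.33, then 3.09, 2.36 and 3.07, a rise of 3.1 ± 0.24 (adjusted p = 8.4e-06, limma). Its blood and TIC arrays did not overlap, and day 0 blood of mouse 833 was the highest of the 6 blood arrays.

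Among small-subunit genes Mrps28 led, with 0.03, 0.30 and 0.12 in day 0 blood, 0.01, -0.01 and -0.20 in day 10 blood and 2.94, 2.19 and 3.04 in TIC. It rose by 2.79 ± 0.21 (adjusted p = 9.08e-06, limma). Mrps33, a protein found only in mitochondrial ribosomes, read 0.14, 0.50 and 0.17, then -0.25, -0.38 and -0.51, then 2.81, 1.64 and 2.69, a rise of 2.76 ± 0.28. For both genes the lowest TIC array was that of mouse 833 and still lay above every blood array. Mrps10, a small-subunit protein with a bacterial counterpart, rose by 2.31 ± 0.19 (adjusted p = 1.09e-05, limma).

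The other genes among the 10 largest rises belonged to the large subunit. Mrpl50 rose by 2.41 ± 0.21, Mrps18a by 2.32 ± 0.23 and Mrpl20, whose bacterial counterpart acts early in assembly, by 2.29 ± 0.35. Mrpl12, the counterpart of the bacterial stalk protein that recruits translation factors, rose by 2.39 ± 0.20 in log ratio and by 3.93 in Cy5 alone. Its ratios were -0.11, 0.09 and -0.03, then -0.33, -0.27 and -0.06, then 2.13, 1.77 and 2.61. The blood values of Mrpl12 lay close to each other, and its reference channel differed between arrays, as given below. Mrpl20 lost its call with the slide as a block (1.49), as did Mrpl35 (2.75).

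**Figure D2:**
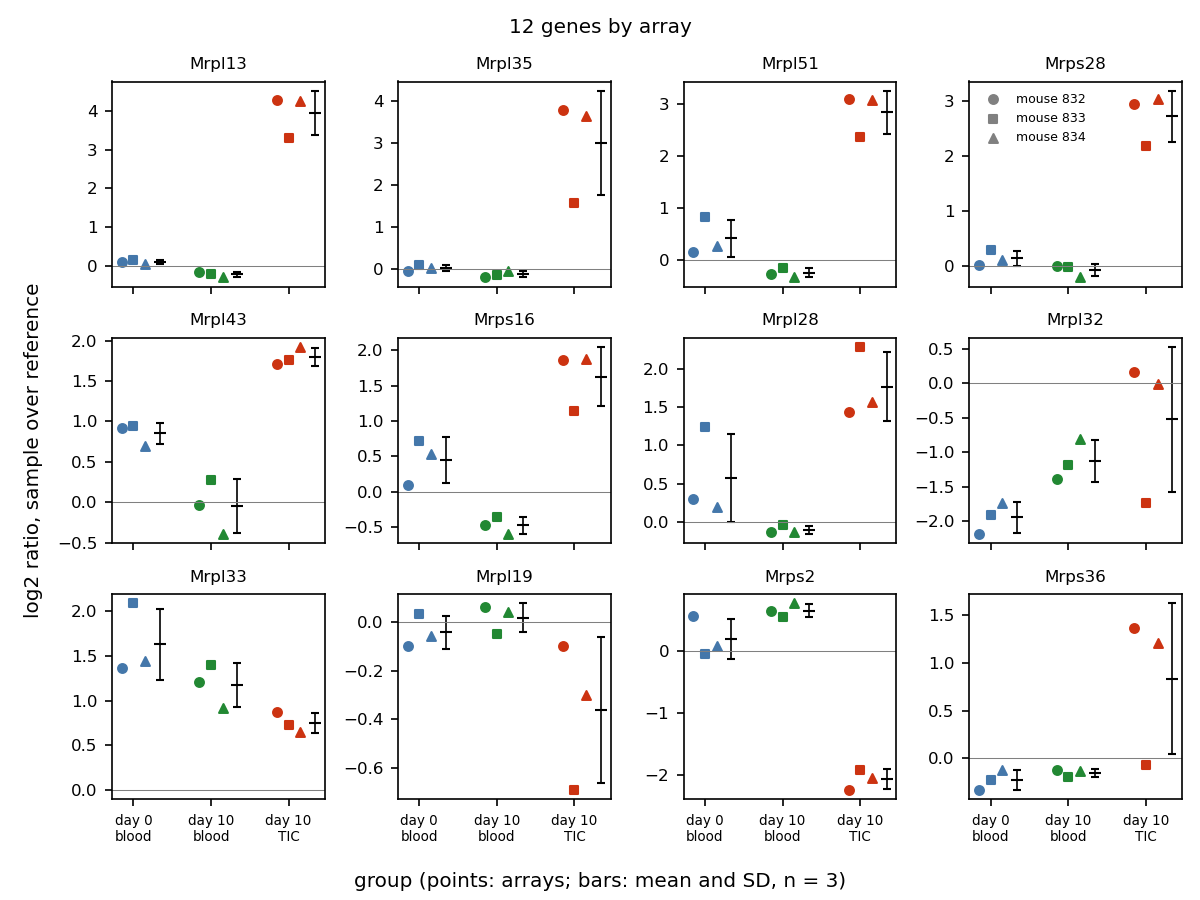
Log2 ratio of sample over reference for 12 genes (one panel each, with its own vertical scale) in day 0 blood, day 10 blood and day 10 TIC; points are arrays, their shape gives the mouse, and bars are the mean and SD of 3 arrays. Mrpl13, Mrpl35, Mrpl51 and Mrps28 are high on the TIC arrays only, Mrps2 is low there, and Mrpl28 is highest on the TIC array of mouse 833.

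By subunit, 44 of 48 large-subunit genes rose and 1 fell (median 1.61), and 25 of 26 small-subunit genes rose and 1 fell (median 1.24). The interquartile range was 1.13 to 1.95 in the large subunit and 0.92 to 1.94 in the small one, so the groups overlapped widely. Of the 46 genes with a bacterial counterpart 41 rose and 2 fell (median 1.61). All 28 genes known only from mitochondrial ribosomes rose (median 1.49). Mrps36, which is no ribosome subunit, rose as well, by 0.99 ± 0.33 (adjusted p = 0.025, limma), with -0.07 on the TIC array of mouse 833 against 1.37 and 1.21 in the other mice. Its second kept probe gave 0.28 ± 0.17 and was not called (adjusted p = 0.167 over all kept probes, limma). Rises of under 0.6 were those of Mrpl17 (0.59), Mrps22 (0.55), Mrpl38 (0.55), Mrpl9 (0.49), Mrps5 (0.48) and Mrps27 (0.34). The Cy3 reference was higher on the TIC arrays by 1.85 for Mrpl17, 1.18 for Mrps22, 0.92 for Mrpl38 and 1.29 for Mrps5. It differed by 0.07 for Mrpl9 and 0.02 for Mrps27. In Cy5 alone Mrps5 rose by 1.95, Mrpl38 by 1.52 and Mrpl9 by 0.73. The other kept probes of Mrps5 rose by 1.21 and 1.45 in log ratio.

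Sample RNA was dim on the blood arrays, which limits the size of these differences. Of the spots on an array, 24.3% to 36.9% passed the scanner software's background test in Cy5 in day 0 blood, 14.2% to 21% in day 10 blood and 48.2% to 55.1% in TIC. All 75 genes were well above background on every TIC array, 52 on every day 0 array and 19 on every day 10 blood array. On no day 10 blood array were 36 genes above it. For these 36 the TIC fraction was at least 1.33-fold (Mrps27) to 13.5-fold (Mrpl12) brighter in normalized Cy5, where the dim group is set to the higher of its own signal and the lowest signal called above background. These bounds are open to dye bias. For 34 of the 36 genes they exceeded the fold that the log ratio gave, so they do not bound that ratio. In the 23 genes that under 3 of the 6 blood arrays showed above background, 21 rose and 1 fell (median 1.04), and these had passed the filter through the TIC arrays. Of all 6078 tested genes of that kind, these included, 49.7% rose and 11.5% fell. In the 52 genes above background on at least 3 blood arrays 49 rose and 1 fell (median 1.73), where 23.1% of the 8184 genes of that kind rose and 49.3% fell. Of 73 genes read from probes above background in Cy3 on all 9 arrays, 67 rose and 1 fell, beside 23.3% and 45.4% of all such genes.

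The TIC array of mouse 833 stood apart from the other TIC arrays. Its median ratio over the 75 genes was 0.78, against 1.71 in mouse 832 and 1.67 in mouse 834. It was the lowest of the 3 TIC arrays for 66 of the 75 genes and the highest for 5. Over all genes the median ratio was 0.01 on the TIC arrays of mice 832 and 833 and 0.07 on that of mouse 834. Loess holds this median near 0 on every array, so it cannot show whether the array differed in general. Over all genes the TIC arrays of mice 832 and 834 correlated at 0.99, and that of mouse 833 with them at 0.88 and 0.9. The array of mouse 833 thus differed beyond the 75 genes. Within mice the median difference between TIC and day 10 blood was 1.83, 0.70 and 1.84, against 0.03, 0.02 and 0.09 over all genes. In mouse 833, 66 genes were still higher in TIC than in both of its bloods. Mrpl28, a large-subunit protein with a bacterial counterpart, went the other way, with 0.30, 1.24 and 0.20 in day 0 blood, -0.13, -0.04 and -0.13 in day 10 blood and 1.44, 2.28 and 1.57 in TIC. Without this array 72 genes rose and 1 fell, with a median difference of 1.76, beside 39.8% and 37% of all genes.

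Mrps2, a small-subunit protein with a bacterial counterpart, was the exception with the largest fall. The probe used (chr2:28292034-28292093, mm8, plus strand) read 0.56, -0.05 and 0.09 in day 0 blood, 0.64, 0.55 and 0.77 in day 10 blood and -2.24, -1.92 and -2.05 in TIC, a fall by 2.72 ± 0.17 (adjusted p = 3.38e-06, limma). Cy5 alone fell by 2.42. Other probes of the gene differed from it: one at chr2:28290670-28290729 fell by 0.69 ± 0.09, and one at chr2:28292772-28292831, above background on the TIC arrays only, rose by 0.54 ± 0.12 (adjusted p = 0.00427 over all kept probes, limma). The gene was thus called in opposite directions by its own probes, and with each array centred on its median in place of loess the probe used gave 0.41 and was not called (adjusted p = 0.212, limma). Of 27 genes with 2 or more kept probes, Mrps2 alone had probes called both ways. For Mrpl47, of the large subunit, the probe used rose by 1.57 ± 0.35 and its second kept probe gave -0.18 ± 0.16 and was not called.

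Mrpl19, a large-subunit protein with a bacterial counterpart, depended on the channel. Its ratios were -0.10, 0.03 and -0.06, then 0.06, -0.05 and 0.04, then -0.10, -0.69 and -0.30, a difference of -0.38 ± 0.15 (adjusted p = 0.0481, limma). In Cy5 alone it rose by 1.28 (adjusted p = 0.00131, limma), with 6.34, 5.99 and 6.21 in day 10 blood and 7.81, 6.85 and 7.70 in TIC on the log2 scale. Its Cy3 signal, from the same reference RNA, was 1.52 higher on the TIC arrays than on the day 10 blood arrays. The fall lost its call in most alternatives, among them the mouse as a block (adjusted p = 0.0619). The direction of Mrpl19 was thus not settled.

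Mrpl33, a small large-subunit protein with a bacterial counterpart, was the gene highest above the reference in blood. It read 1.37, 2.09 and 1.44 in day 0 blood, 1.21, 1.40 and 0.92 in day 10 blood and 0.87, 0.73 and 0.65 in TIC. The difference from day 10 blood was -0.43 ± 0.21 (adjusted p = 0.0956, limma) and Cy5 alone gave a rise of 0.96 (adjusted p = 0.0129, limma). Mrpl32, which in mitochondria is matured by the m-AAA protease before it joins the large subunit, lay lowest in blood, with -2.18, -1.91 and -1.74 at day 0 and -1.39, -1.19 and -0.80 at day 10. On the TIC arrays it read 0.17, -1.73 and -0.01, so mouse 833 lay among its bloods and the difference of 0.60 ± 0.45 was not called (adjusted p = 0.258, limma). Mrpl4, of the large subunit, gave 0.54 ± 0.21 (adjusted p = 0.0503, limma).

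**Figure D3:**
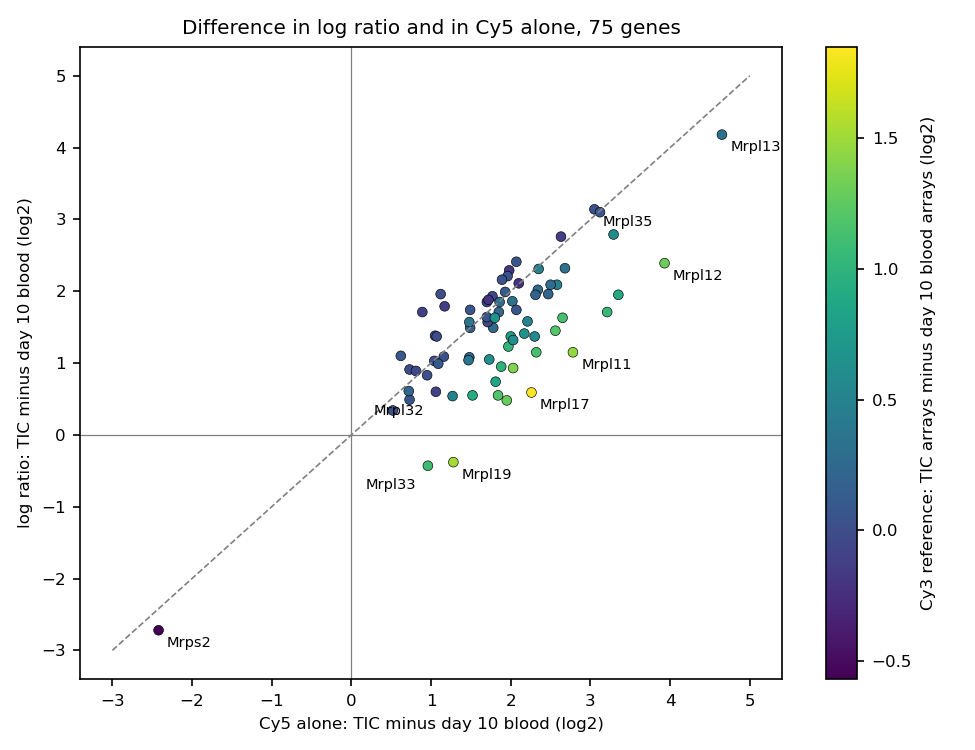
Each point is 1 of the 75 genes: its TIC minus day 10 blood difference in Cy5 alone (horizontal, log2) against that in log ratio (vertical, log2), coloured by the same difference in the Cy3 reference; the dashed line marks equal values. Genes with a raised reference, such as Mrpl17, Mrpl11, Mrpl12 and Mrpl19, lie below the line, and Mrps2 is low on both axes.

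The reference channel itself differed between arrays although its RNA was the same. The median Cy3 signal of the 75 genes (log2, quantile-normalized) was 6.99 to 7.01 on the 6 blood arrays and 7.59, 7.26 and 7.68 on the TIC arrays of mice 832, 833 and 834. Between TIC and day 10 blood arrays 38 of the 75 genes were called higher and 2 lower in Cy3, where 10.4% and 14.3% of all genes were. The median difference in Cy3 was 0.24, against -0.03 over all genes, and 13 genes exceeded 1. Mrpl17 had the largest, with 6.76, 6.75 and 6.76 on day 0 arrays, 6.74, 6.65 and 6.66 on day 10 blood arrays and 8.67, 7.93 and 9.01 on TIC arrays, a difference of 1.85 ± 0.21 (adjusted p = 0.000275, limma). Mrpl17 rose by 0.59 in log ratio and 2.26 in Cy5 alone. Mrpl11, another large-subunit protein of bacterial type, had 1.46 in Cy3, 1.15 in log ratio and 2.78 in Cy5 alone. For 36 of the 38 genes the log ratio difference was smaller than that in Cy5 alone. These genes were picked for a higher Cy3, by which the ratio is divided, so this count is no separate support. Between TIC and day 0 arrays 40 genes were higher and 2 lower in Cy3, beside 9.43% and 12% of all genes. On slide 2, which held 2 TIC and 2 day 0 arrays, the median Cy3 difference was 0.23, against -0.04 over all genes. That in Cy5 was 1.31, against 0.12. Between the bloods no gene of all tested was called in Cy3. The part of the reference channel in the ratios was not tested further.

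**Figure D4:**
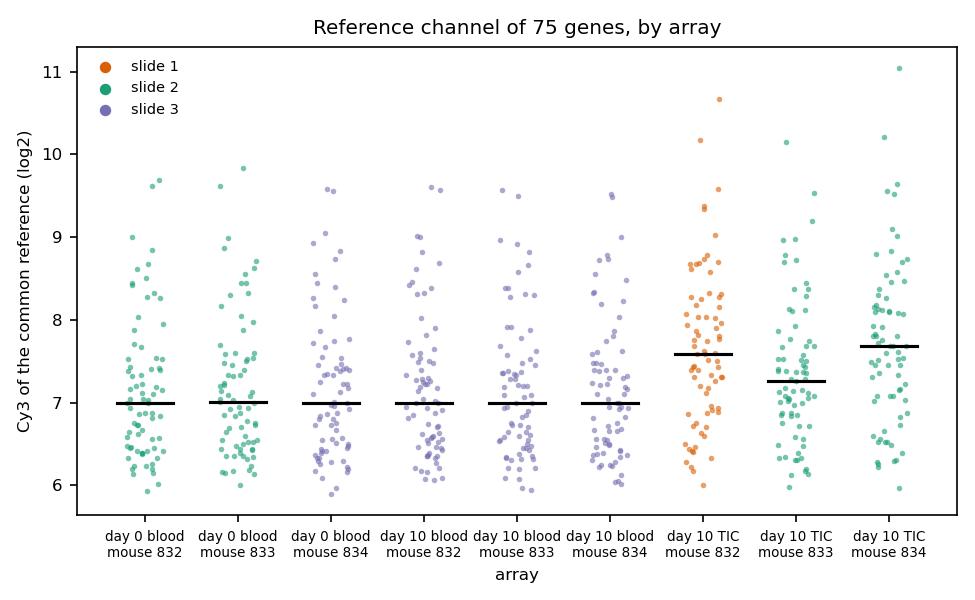
Cy3 signal of the common reference (log2, quantile-normalized, vertical) for the 75 genes on each of the 9 arrays (horizontal, by group and mouse); points are genes, colours are slides and black bars are medians. The medians of the 6 blood arrays lie at 6.99 to 7.01 and those of the TIC arrays at 7.26 to 7.68, also on slide 2, which holds both groups.

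Against day 0 blood, before tumour cells were given, the TIC fraction again gave higher ratios for most of the family. Here 70 genes rose and 2 fell, where 31.7% of all genes rose and 33.6% fell. With the mouse as a block 69 rose and 2 fell, beside 30.4% and 33.5% of all genes, and when day 10 blood was left out of the fit 60 rose and 2 fell, beside 25.1% and 30.4%. The groups did not overlap for 67 genes that were higher and 2 that were lower, where 32.7% and 34.9% of all genes were so separated. The median difference was 1.34 against 0.01 over all genes. Read from probes above background in Cy3 on all 9 arrays, 67 of 73 genes rose and 2 fell, beside 21.2% and 45% of all such genes. In both TIC comparisons 68 genes rose, where at most 31.7% of all genes can have risen in both. The comparisons share the TIC arrays, so they are not independent. The largest rises were those of Mrpl13 (3.86 ± 0.24), Mrpl35 (2.99 ± 0.50), Mrps28 (2.57 ± 0.21), Mrpl51 (2.44 ± 0.24), Mrps18a (2.23 ± 0.23), Mrpl50 (2.22 ± 0.21) and Mrpl12 (2.19 ± 0.20). Mrpl53 of the large subunit read -0.33, 0.10 and 0.18 in day 0 blood and 2.76, 1.02 and 2.62 in TIC, a rise of 2.15 ± 0.41. Mrps17, a small-subunit protein with a bacterial counterpart, read -0.15, -0.01 and 0.21 and then 2.41, 1.34 and 2.56, a rise of 2.09 ± 0.29. Mrps33 rose by 2.11 ± 0.28. The TIC arrays of all 3 mice lay above day 0 blood for each of these.

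Mrps2 fell by 2.27 ± 0.17 against day 0 blood, again with a second probe that rose by 0.50 ± 0.12. Mrpl33 fell by 0.88 ± 0.21 (adjusted p = 0.00546, limma) in log ratio, while Cy5 alone gave 0.37 and was not called. Mrpl19, Mrps26 and Mrps27 were not called. Mrpl32, not called against day 10 blood, was called higher here by 1.42 ± 0.45 (adjusted p = 0.0217, limma). In Cy5 alone 69 genes rose and 1 fell, beside 26.9% and 22.7% of all genes. Over the 2 TIC and 2 day 0 arrays of slide 2 the median difference in log ratio was 1.15, against 0.02 over all genes, and 72 of the 75 genes lay above 0. Within mice the median difference was 1.65, 0.62 and 1.62, against 0, -0.05 and 0.03 over all genes.

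Between the bloods no gene of the family passed the threshold, and none of the 14262 genes did. The median difference was -0.12, against -0.01 over all genes. Before adjustment 12 of the 75 genes had p under 0.05 (limma), 1 higher and 11 lower at day 10, beside 8.71% and 6.06% of all genes. The groups did not overlap for 3 genes higher and 28 lower, where 15.7% and 17.2% of all genes were so separated. In Cy5 alone 4 genes were called lower and none higher (Mrpl3, Mrpl16, Mrpl23 and Mrps16), where 2.46% of all genes were lower and 1.69% higher. When the TIC arrays were left out of the fit, 6 genes were called lower and 2 higher, beside 2.61% and 2.64% of all genes. With the mouse as a block no gene of the family was called, and 32 of all genes were (0.203% higher and 0.021% lower). Without the TIC array of mouse 833, which adds to the spread the fit shares over all groups, 8 genes were called lower and 1 higher, beside 3.67% and 3.74% of all genes.

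The smallest p belonged to Mrpl43, a mitochondria-specific protein of the large subunit. It read 0.92, 0.94 and 0.70 at day 0 and -0.04, 0.28 and -0.39 at day 10, a difference of -0.90 ± 0.17 (adjusted p = 0.0703, limma). Mrps16, of the small subunit, read 0.09, 0.72 and 0.53 and then -0.47, -0.35 and -0.59, a difference of -0.92 ± 0.23 (adjusted p = 0.138, limma). Mrpl3, a large-subunit protein with a bacterial counterpart, read 0.67, 0.72 and 0.43 and then -0.12, 0.05 and -0.08, a difference of -0.66 ± 0.14. For these 3 genes every day 10 array lay below every day 0 array. Mrpl52 gave -0.75 ± 0.16 and Mrps26 -0.44 ± 0.12. Other kept probes of these genes gave smaller differences: -0.35 for Mrpl43, -0.32, -0.05 and -0.08 for Mrpl3, -0.04 for Mrpl52 and -0.05 for Mrps26. The Mrpl3 probe with -0.08 and that of Mrpl52 were above background on the TIC arrays only. The Mrpl3 probe with -0.05 was above background on 1 day 0 array and that of Mrps26 on 3, and both on no day 10 blood array. All these other probes thus lay below 0, but by less than the probes used. A dim probe cannot show the size of a fall, and Mrps16 had only 1 probe. On the other side Mrps2 gave 0.45 ± 0.17, Mrpl32 0.82 ± 0.45 and Mrps21 0.42 ± 0.42, and Mrpl37 (0.12) and Mrpl10 (0.08) hardly differed. Over all 75 genes 59 had a lower mean at day 10, where the median difference of all genes tested was -0.01. The same Cy5 channel had fewer spots above background in day 10 blood than in day 0 blood. Cell markers differed between the bloods too, though none was called in log ratio. Red cell markers had a median difference of 1.76 and B cell markers of -1.78. In Cy5 alone 5 of 8 red cell markers were higher and 5 of 6 B cell markers lower, beside 1.69% and 2.46% of all genes. Of 58 cytosolic ribosomal protein genes 16 were lower in Cy5 alone and none higher. The part of any of these in the values of the 75 genes was not tested.

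The other genes of mitochondrial translation were read from lists. In the comparison of TIC with day 10 blood, 6 of 8 mitoribosomal proteins with other names rose and none fell (median 1.36). Mrpl58, a peptidyl-tRNA hydrolase built into the large subunit, rose by 1.34 ± 0.11 (adjusted p = 1.23e-05, limma). Gadd45gip1, at the exit tunnel of the large subunit, read -0.56, -0.71 and -0.35 in day 10 blood and 2.65, 1.51 and 2.67 in TIC, a rise of 2.81 ± 0.29. Of 24 genes for assembly and rRNA modification 12 rose and 3 fell (median 0.49). C1qbp, a matrix protein needed for mitochondrial translation, rose by 2.72 ± 0.15 (adjusted p = 2.08e-06, limma), and Nsun4, a methyltransferase of the small rRNA, fell by 2.58 ± 0.19.

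Of 11 mitochondrial translation factors 8 rose and none fell (median 0.73). Tufm, the elongation factor that brings aminoacyl-tRNA to the ribosome, read -0.28, -0.17 and -0.15 in day 10 blood and 1.18, 1.46 and 1.36 in TIC, a rise of 1.54 ± 0.11 (adjusted p = 6.62e-06, limma). Guf1, a translational GTPase, rose by 1.1 ± 0.16. Of 20 genes for charging mitochondrial tRNAs 7 rose and 3 fell, and their median of 0.18 lay near that of all genes. Ears2, the glutamyl-tRNA synthetase, rose by 0.49 ± 0.11. Lars2, the leucyl-tRNA synthetase, fell by 7.54 ± 1.14 in log ratio and by 3.40 in Cy5 alone, with -6.97, -1.78 and -6.22 on the TIC arrays.

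Of 17 genes for mitochondrial DNA transcription and for regulators of nuclear genes for mitochondria 12 rose and 3 fell (median 0.38). Slirp, which stabilizes mitochondrial mRNA, rose by 2.08 ± 0.20, and Tfam, which packages mitochondrial DNA, fell by 4.82 ± 0.63 (adjusted p = 0.000186, limma). Of the genes for factors whose motifs were searched, Nrf1 rose by 0.32, Gabpa by 0.29 and Gabpb1 by 0.38. Yy1 fell by 0.60, with -0.16 in Cy5 alone, not called. No value is given here for a factor of the Sp1 or E-box motif. Of 58 cytosolic ribosomal protein genes 44 rose and 3 fell (median 1.46) in log ratio, and in Cy5 alone 56 rose and 1 fell (median 2.79, against 1.86 for the 75 genes). Among them were Rps15 (2.55 ± 0.16) and Rps3 (2.68 ± 0.17). Of 85 genes of the respiratory chain and ATP synthase 57 rose and 9 fell (median 1.06), and in Cy5 alone 66 rose and 4 fell (median 1.7). With median centring the medians were 7.18 for the cytosolic list, 5.5 for the respiratory list and 4.53 for the 75 genes, so the order of these medians depended on the scaling. Ndufab1, the acyl carrier protein of complex I, rose by 2.28 ± 0.12, and Cox6b2, a testis form of a complex IV subunit, fell by 4.82 ± 0.28. No test of the difference between these lists and the 75 genes was made. Among the calls named here, the differences of Nsun4, Tfam and Yy1 changed sign when arrays were centred on their medians in place of loess, and those of Lars2 and Cox6b2 kept theirs.

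**Figure D5:**
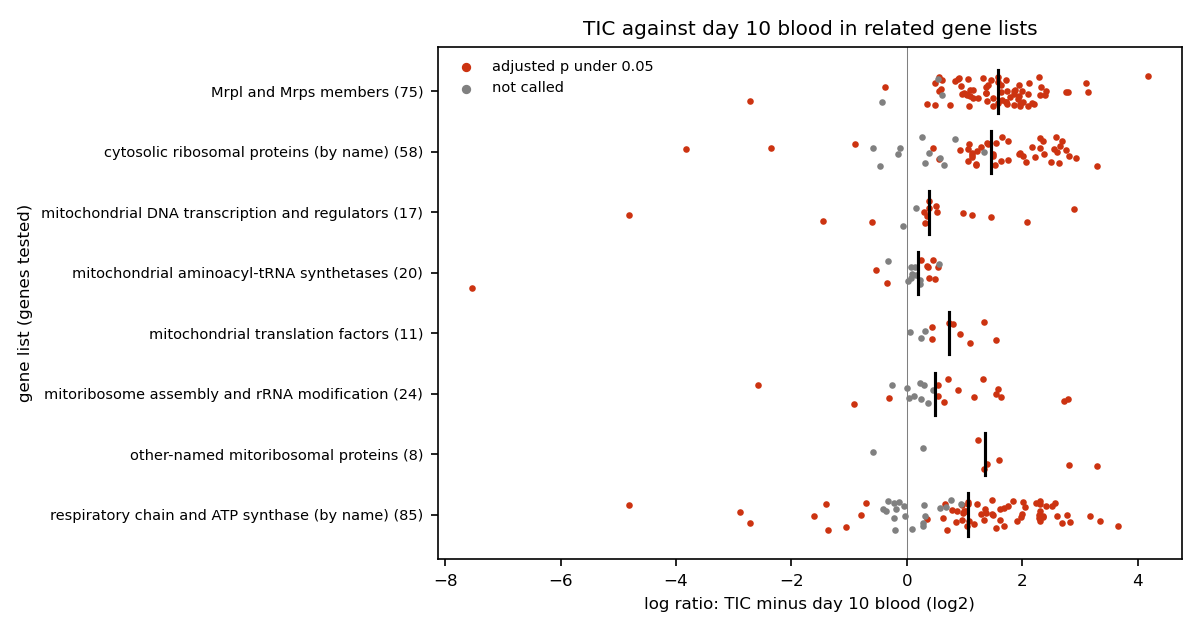
Difference in log ratio between TIC and day 10 blood (log2, horizontal) for the 75 genes and 7 lists of related genes (rows, with the number of genes tested); red points have an adjusted p under 0.05 and black bars are medians. The medians are 1.57 for the 75 genes, 1.46 for cytosolic ribosomal proteins, 1.06 for the respiratory chain and 0.18 for the genes that charge mitochondrial tRNAs, an order that holds in log ratio and not in Cy5 alone, where the cytosolic list is at 2.79 and the 75 genes at 1.86.

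The makeup of the samples moved with these differences. Of 8 red cell markers all 8 fell in TIC against day 10 blood (median -8.15), and their summed Cy5 signal (normalized, linear) was 89100 to 115000 on the 6 blood arrays and 1170 to 1360 on the TIC arrays. All 6 B cell markers and all 5 T cell markers tested fell, as did 5 of 7 neutrophil markers. In Cy5 alone 2 of the 5 T cell markers were lower (median -0.45), and all 6 B cell and 7 neutrophil markers were. Median centring in place of loess changed the sign of 4 of these T cell markers, 3 of these neutrophil markers and Mki67 below. With that centring 3 of the 6 B cell markers were called lower, and no T cell or neutrophil marker was. Of 8 macrophage markers 4 rose and none fell, with a summed Cy5 of 915 to 1130 in blood and 2510 to 5920 in TIC. Of 6 hepatocyte and hepatoma markers 5 rose and 1 fell (Ahsg), and all 6 were well above background on each TIC array. Afp, the fetal liver protein that marks hepatoma cells, rose by 5.35 ± 0.28, and Alb, Igfbp1 and Apoa1 were above background on no blood array. The summed Cy5 of this list was 6480, 50400 and 7990 in TIC of mice 832, 833 and 834, and 527 to 965 in blood. The median log2 ratio of the list differed less between these TIC arrays, with 2.88, 3.44 and 3.17. Of 7 cycling-cell markers 6 rose and 1 fell (Mki67), and their summed Cy5 was 915 to 1620 in blood and 2860 to 4260 in TIC. The part of these cells in the rise of the 75 genes was not tested. In bulk RNA, more cells of a type and more RNA per cell cannot be told apart.

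The arrays lay on 3 slides, with the TIC array of mouse 832 alone on slide 1, the other TIC arrays with 2 day 0 arrays on slide 2, and the rest on slide 3. No slide held TIC and day 10 blood, so that comparison could be read within a slide only through day 0 blood. With the slide as a block 30 genes rose and 1 fell against day 10 blood (median 1.23, beside 10.5% and 19.5% of all genes), and 52 rose and 2 fell against day 0 blood (median 1.15, beside 21.6% and 28.2%). With each array centred on its median in place of loess the median of all genes moved to 1.38 against day 10 blood and that of the 75 genes to 4.53, with 74 genes higher and none lower, where 72% of all genes rose and 3.25% fell. Against day 0 blood these medians were 1.16 and 3.84.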

How the data were processed

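RNA of 9 samples (3 mice, 3 groups) was measured on 2-colour Agilent arrays of 60-base probes against 1 common reference. The authors deposited scanner output: Cy5 and Cy3 intensity per spot with local background, and a log10 ratio after the scanner software's own correction, per the file headers. The software was Agilent Feature Extraction, version 9.1.3.1 per the submitters' processing notes and 10.5.1.1 per the file headers, and probe positions are in mm8 per the file headers. The deposited intensities were corrected here with normexp (offset 50) and normalized by loess within each array (limma 3.58.1, R 4.3.3), after spots with a non-uniform local background were set aside. A probe was kept if 3 or more of the 9 arrays showed it well above background in Cy5 (20008 probes), which the brighter TIC arrays can decide, and each gene was read from its brightest kept probe, which gave 14262 genes. Loess sets a ratio relative to genes of like brightness. Names were updated through RefSeq: 23374 probes matched by accession, 6733 by symbol and 2919 by synonym, and 8148 kept the name in the files.

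The log2 ratios were fitted with group as the term over all 9 arrays (lmFit and eBayes, 6 residual degrees of freedom), with Benjamini-Hochberg adjustment over all genes and a threshold of 0.05. Cy5 alone and Cy3 alone were quantile-normalized between arrays. The number of arrays limits the precision. The fit was tested on simulated data, with independent normal noise of each gene's own spread and no slide or mouse effect. For TIC against day 10 blood it recovered 31 and 29 of 50 genes at true log2 differences of 1 and -1. At 2 and -2 it recovered 45 and 47 of 50, and it called 10 of 14062 unchanged genes. Genes named are the 10 largest called differences in each direction with the same direction in all 3 mice (the 5 smallest p in each direction where none was called), genes whose called direction differed between log ratio and Cy5 or between probes, and 2 genes of each related list by smallest p. Other genes named, among them Mrpl4, Mrpl11, Mrpl17, Mrpl28, Mrpl47, Mrps36, the genes with the smallest rises and the factors of the motifs, were chosen after their values were seen. The genes followed and the lists were chosen with earlier results of these data known. Samples with the same mouse number come from 1 animal, per the labels. Deviations from the group means correlated at -0.06 to 0.35 within mice (9 pairs) and -0.23 to 0.12 between them (18 pairs). Between day 0 and day 10 blood they correlated at 0.19, 0.35 and 0.24 within mice 832, 833 and 834, and at -0.23 to 0.02 between mice. The main fit does not use this pairing, and the fits with the mouse as a block do. The alternatives were mouse and slide as blocks, other background, normalization, filter, probe and channel choices, and each array left out.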

Additional observations from a re-analysis of the deposited data

How the results depend on the processing

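The median difference of the 75 genes in TIC stayed above 0 under all alternatives run. Most of the genes tested were called higher, except against day 10 blood with the slide as a block, where 30 genes rose (10.5% of all genes). With Cy5 above background on all 9 arrays only 19 of the 75 genes were left to test: 16 rose against day 10 blood, beside 17.7% of all genes higher and 58.1% lower, and 17 against day 0 blood, beside 15.9% and 58.8%. With that filter in Cy5 alone, chosen after seeing the data, 17 and 16 rose, beside 20.4% and 18.5% of all genes. With normexp offset 10, 66 rose and 3 fell against day 10 blood (32.4% and 34.3% of all genes), and 56 and 3 against day 0 blood (27.8% and 35.1%). The count of genes lower against day 10 blood, 2 as reported, was 1 with the mouse or slide as a block, in Cy5 alone by quantile or 75th percentile, with the deposited ratio, with non-uniform spots kept, with no filter, with the Cy5 or Cy3 filter on all 9 arrays, and with those filters in Cy5 alone, and 0 with median centring. Against day 0 blood it was 1 in Cy5 alone by quantile or 75th percentile and with either filter in Cy5 alone, and 0 with median centring. The median difference against day 10 blood was 3.71 in Cy5 by 75th percentile, 4.53 with median centring and 2.65 with the deposited ratio, and against day 0 blood 3.39 and 3.84 by the first pair. Median centring made 95.7% of all calls against day 10 blood higher ones, the deposited ratio 63.2% and the reported setting 50.9%; against day 0 blood centring gave 92% and the reported setting 48.5%. Mrpl19 reversed against day 10 blood in Cy5 alone (1.28 by quantile, 2.21 by 75th percentile), with median centring (1.75) and with the deposited ratio (0.57). Mrps2 changed sign there with median centring (0.41, not called). Mrpl33 reversed against day 0 blood in Cy5 alone (0.37 and 3.23) and with median centring (3.23). The cause was not tested.

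Between the bloods 2 genes were higher and 6 lower with only those groups in the fit (2.64% and 2.61% of all genes). The count lower was 4 in Cy5 by quantile (2.46% of all genes), 9 with the deposited ratio (4.32%), 1 with offset 10 (0.498%), 1 with the Cy5 filter on all 9 arrays (1.18%), 5 with the Cy3 filter in Cy5 alone (3.5%) and 2 with the Cy5 filter in Cy5 alone (4.22%). The median was -0.16 with the slide block, -0.38 and -0.25 in Cy5 by quantile and 75th percentile, -0.39 with median centring, -0.96 with the deposited ratio, -0.32 with offset 10, -0.31 with the Cy5 filter, -0.09 over each kept probe, and -0.39 and -0.28 with the Cy3 and Cy5 filters in Cy5 alone. Leaving out 1 array gave 63 to 72 genes higher, 1 to 2 lower and a median of 1.34 to 1.76 against day 10 blood, where 28.4% to 39.8% of all genes were higher and 30% to 37% lower. Against day 0 blood it gave 59 to 71, 2 to 3 and 1.14 to 1.58, beside 25.4% to 37.8% and 31% to 37.9%. Between the bloods it gave 0 to 1, 0 to 8 and -0.16 to -0.11, beside 0% to 3.74% and 0% to 3.67%. With the mouse as a replicate block 69 genes rose and 1 fell against day 10 blood, 69 and 2 against day 0 blood, and 0 and 0 between the bloods. Signal over background limits the blood values: 36 genes were above it on no day 10 blood array.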
